A study of Mus musculus with 4 samples.

Results

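Isolated YAP sites were taken as the peaks of wild type (WT) mouse epidermis whose summit had no other WT summit within 150 kb on either side of it on the same chromosome, together with any overlapping peak of the Bmal1 knockout (KO). Of 36576 WT peaks, 687 (1.88%) met this rule, and 175 of the 14879 KO peaks overlapped one of them. YAP binding had been mapped by chromatin immunoprecipitation with an anti-YAP antibody and sequencing (ChIP-seq). The epidermal cells came from adult mice aged 18 to 25 weeks at Zeitgeber time 4 (ZT4), with either the genotype Bmal1 WT or the genotype Bmal1 KO. The labels also write Bmal1cKO for the knockout, without naming the cells in which the gene was deleted. Each genotype was represented by 1 peak list whose names carry the word pooled, so no replicate error can be given, and a difference between the genotypes cannot be told apart from a difference between these 2 pools.

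YAP does not bind DNA itself. It is a co-activator of the Hippo pathway that is brought to DNA mainly by TEAD factors, often at enhancers that also hold AP-1 motifs, and in epidermis it is known for roles in basal keratinocyte growth and wound repair. BMAL1, encoded by Arntl, is a clock transcription factor that binds E-boxes together with CLOCK. YAP peaks are often grouped near the same genes, and the sites described here are those that stand alone.

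The height of a peak is given as recovered reads, the whole number of ChIP reads at the summit that follows from the deposited fold and −log10 p. The lists shared an even-spread background of 9.63 reads, so recovered reads are in the same units in both. Across all peaks the median was 61 reads in WT and 52 in KO. A WT site that shared at least 1 bp with a KO peak was called kept, and any other was called WT-only.

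Several isolated sites lay on a promoter, and the RefSeq table of GRCm38.p6 gives sequence for those with a window in it. The stretches below are the 250 bases before the start of 7 genes whose window, from 250 bases before to 50 after the start, held an isolated summit. Alg6 and Zfp317 had the most reads of these sites, and Ddhd1 the most among the WT-only ones. Rnpc3 was the farthest from any other WT peak. Cryz and Bet1 had the most reads of the kept and of the WT-only sites with the letters GGAATG. Sub1 held an E-box, and its WT-only site had a KO peak 122 kb away. Capitals mark the TEAD letters GGAATG or their complement CATTCC, the AP-1 letters TGANTCA and the E-box CACGTG, each searched on both strands.
Alg6, chr4:99715380-99715629, + strand: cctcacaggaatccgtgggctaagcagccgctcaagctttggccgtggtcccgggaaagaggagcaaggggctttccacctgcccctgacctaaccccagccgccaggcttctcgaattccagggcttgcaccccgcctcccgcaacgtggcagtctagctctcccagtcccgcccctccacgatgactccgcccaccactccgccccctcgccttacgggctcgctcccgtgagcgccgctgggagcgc
Zfp317, chr9:19621841-19622090, + strand: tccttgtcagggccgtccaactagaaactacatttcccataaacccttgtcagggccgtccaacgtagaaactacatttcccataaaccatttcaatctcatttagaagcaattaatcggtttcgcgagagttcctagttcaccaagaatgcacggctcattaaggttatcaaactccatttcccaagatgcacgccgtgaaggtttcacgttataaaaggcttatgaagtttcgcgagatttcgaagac
Ddhd1, chr14:45658144-45658393, - strand: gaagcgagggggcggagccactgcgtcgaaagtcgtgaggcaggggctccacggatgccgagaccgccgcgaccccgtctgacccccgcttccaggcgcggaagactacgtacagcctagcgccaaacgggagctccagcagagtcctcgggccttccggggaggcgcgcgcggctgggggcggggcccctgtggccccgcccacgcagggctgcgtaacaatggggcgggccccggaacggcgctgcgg
Cryz, chr3:154596947-154597196, + strand: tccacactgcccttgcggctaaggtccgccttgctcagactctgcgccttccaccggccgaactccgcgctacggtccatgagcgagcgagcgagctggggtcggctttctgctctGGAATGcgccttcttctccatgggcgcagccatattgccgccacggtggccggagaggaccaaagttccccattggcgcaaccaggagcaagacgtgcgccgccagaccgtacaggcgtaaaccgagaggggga
Bet1, chr6:4086931-4087180, - strand: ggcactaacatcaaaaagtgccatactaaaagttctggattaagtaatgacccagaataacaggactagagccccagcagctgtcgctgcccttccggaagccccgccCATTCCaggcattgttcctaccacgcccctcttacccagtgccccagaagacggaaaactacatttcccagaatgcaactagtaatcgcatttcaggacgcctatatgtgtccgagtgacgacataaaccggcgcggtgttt
Rnpc3, chr3:113630150-113630399, - strand: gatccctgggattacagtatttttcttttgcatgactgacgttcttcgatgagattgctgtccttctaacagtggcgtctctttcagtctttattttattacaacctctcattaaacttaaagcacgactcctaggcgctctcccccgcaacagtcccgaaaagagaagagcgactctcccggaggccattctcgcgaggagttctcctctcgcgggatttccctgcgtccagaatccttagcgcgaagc
Sub1, chr15:11996008-11996257, - strand: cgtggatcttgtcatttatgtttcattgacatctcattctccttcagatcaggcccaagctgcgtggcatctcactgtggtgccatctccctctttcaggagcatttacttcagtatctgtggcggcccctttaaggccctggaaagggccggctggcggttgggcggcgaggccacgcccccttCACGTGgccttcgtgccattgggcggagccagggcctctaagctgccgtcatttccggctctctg

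The distance of an isolated site to the nearest other WT summit had a median of 243 kb and reached 4240 kb. Over 300 kb lay 241 of the 687 sites and over 1 Mb lay 28. The sites were selected on these distances between WT summits, which are given as a description. Among the other 35889 WT peaks the median was 5.20 kb. The gaps on both sides of an isolated site added up to a median of 0.861 Mb. For 9 sites there was no WT peak at all on 1 side up to the chromosome end.

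Just inside the limit lay a site in Kifap3 at 150.1 kb with 38 WT reads, a site near Dok5 at 150.2 kb with 52 reads and a site near Cobl at 150.3 kb with 45 reads. Just outside it lay sites in Zfp871 at 149.4 kb with 38 reads, in Fam117b at 149.1 kb with 51 reads and near Gm4802 at 148.7 kb with 49 reads. Of these 6 sites, the one near Dok5 was kept, with 50 KO reads.

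**Figure D1:**
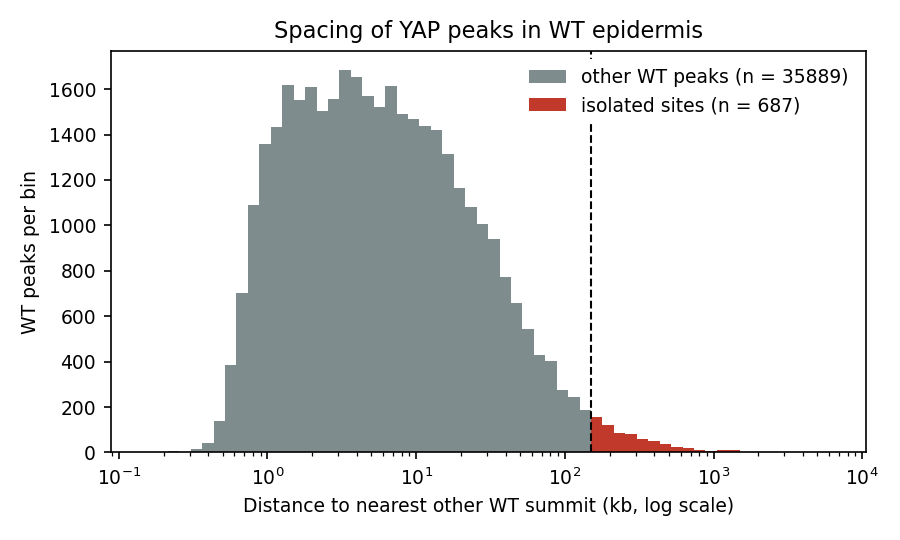
Histogram of the distance from each WT summit to the nearest other WT summit on the same chromosome, in kb on a log axis, with the number of WT peaks per bin on the vertical axis. The dashed line marks 150 kb, and the 687 isolated sites to its right are the far end of a distribution whose other members had a median of 5.20 kb.

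The isolated sites were weaker than the other WT peaks. Recovered WT reads had a median of 53 (quartiles 44 and 68, range 31 to 198), against 61 (48 and 85, range 28 to 290) for the others. At least 80 reads were found at 101 isolated sites (14.7%, 95% interval 12.1 to 17.6), against 29.0% of the others (28.5 to 29.4). Strong isolated sites existed all the same, with 25 of the 3692 WT peaks of at least 120 reads. Peak width had a median of 454 bp against 518 bp.

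Isolated peaks were also narrower at a given height in every bin from 60 reads upward. From 80 to below 100 reads the median width was 531 bp at 51 isolated sites and 639 bp at 4335 others, and from 120 reads it was 754 bp at 25 isolated sites and 873 bp at 3667 others. From 50 to below 60 reads the medians were 452 and 454 bp. The WT background that the caller used at the summit, in ChIP reads, was above the even spread at 46.1% of isolated sites (42.4 to 50.0) and at 71.7% of the others (71.2 to 72.2), with medians of 9.63 and 11.2 reads. Its part in the difference of width was not tested.

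The highest isolated peak, on chromosome 10 from 87015949 to 87016739, was 8251 bp outside Stab2, a gene for a scavenger receptor that takes up hyaluronan. It had 198 reads in WT and 107 in KO, a log2 KO to WT ratio above background of -0.95. The next, on chromosome X from 77795586 to 77796980, lay 403 bp outside Prkx, which encodes a cAMP-dependent protein kinase, with 185 WT and 93 KO reads (-1.07). Each of the 8 sites with the most WT reads was kept, and KO reads were lower than WT reads at all 8. This was so for nearly all strong peaks. Of the other WT peaks with at least 120 reads, 3661 of 3667 (99.8%) were kept, 1 of them with more KO than WT reads.

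Another site of this group stood alone in a wide region. It lay on chromosome 8 from 28609717 to 28610470, 36641 bp outside Unc5d, a gene for a netrin receptor, and 1349 kb from the nearest other WT summit. It had 171 WT and 105 KO reads (-0.76). A site inside Nbas, whose product takes part in Golgi to ER transport, had 170 WT and 110 KO reads (-0.68; chromosome 12, 13608925 to 13609823).

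Near Crebbp, which encodes the histone acetyltransferase CBP, a site 28744 bp outside the gene span (chromosome 16, 4242389 to 4242977) had 167 WT and 98 KO reads (-0.83). A site 29510 bp outside Sez6l, a gene of a neuronal membrane protein (chromosome 5, 112607741 to 112608379), had 165 and 91 reads (-0.93). The last 2 of the 8 lay at gene ends. They showed the lowest and the highest ratio of the 8, with 161 WT and 74 KO reads at Alg6 (-1.23) and 161 and 106 at Ccdc50 (-0.65).

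A KO peak overlapped 172 of the 687 isolated sites (25.0%, 95% interval 21.8 to 28.5), against 39.1% of all WT peaks and 39.4% of the other WT peaks (38.9 to 39.9). The lower share went with the lower reads. If each isolated site had been kept as often as other WT peaks in its bin of WT reads, 184 would have been kept (26.8%), which lies inside the interval of the observed share. Kept isolated sites had a median of 80 WT reads and WT-only ones a median of 49.

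By WT reads, the kept share of isolated sites rose from bin to bin. It was 5.85% from 40 to below 50 reads (12 of 205), 22.4% from 60 to below 70 (22 of 98), 53.2% from 70 to below 80 (33 of 62) and 92.0% from 100 to below 120 (23 of 25). All 25 isolated sites with at least 120 reads were kept. In the same bins the other WT peaks were kept in 3.76%, 32.0%, 54.9% and 96.9%, and from 120 reads in 99.8%. Over all 8 bins, the share of the other peaks lay inside the 95% interval of the isolated sites except in 2. From 60 to below 70 reads it lay at the upper bound of the interval (14.6 to 32.0), just outside it. Below 40 reads 4 of 73 isolated sites were kept (5.48%, 1.51 to 13.4), above the 1.16% of the others.

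**Figure D2:**
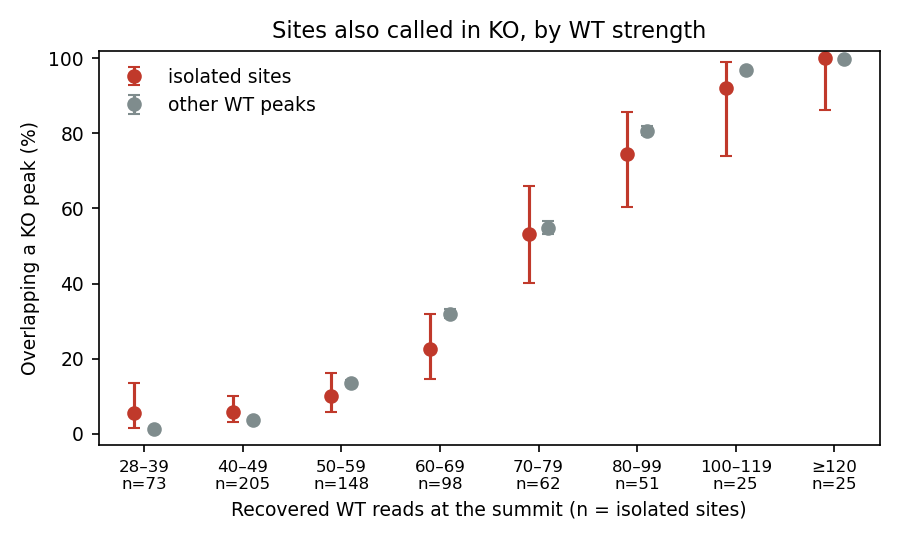
Share of WT sites overlapping a KO peak (vertical axis, %) in bins of recovered WT reads at the summit (horizontal axis), for isolated sites and other WT peaks, with exact 95% intervals for counting error. Both groups climb from under 10% below 50 reads to over 90% from 100 reads.

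Of the 6 isolated sites with the most WT reads and no KO peak, 3 lay over 100 kb from any protein-coding gene. The highest had 104 WT reads, on chromosome 16 from 48156209 to 48157363, 1133 kb from the nearest other WT summit. It was 94800 bp outside Gm52257, the nearest protein-coding gene, and 1672 bp after the start of the non-coding gene 6430553K19Rik. The second had 103 WT reads and was 357052 bp outside Adcyap1 (chromosome 17, 93563364 to 93563936), a neuropeptide gene. These were the only WT-only isolated sites with at least 100 reads.

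On chromosome 7, from 138633631 to 138634303, a WT-only site of 96 reads had Mapk1ip1 as its nearest gene, 201897 bp away. Ddhd1, which encodes a phospholipase, had 95 WT reads in a peak whose summit was 238 bp from its span (chromosome 14, 45657864 to 45658742). It was the one site of these 6 near a protein-coding gene end, and its upstream sequence, printed above, held none of the letters searched. The last 2, with 89 WT reads each, lay inside Vps13b, a gene of Golgi membrane upkeep (chromosome 15, 35767644 to 35768155), and 202939 bp outside Zfp326 (chromosome 5, 106118476 to 106119033).

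At kept sites, KO summits had fewer reads. KO reads were lower than WT reads at 161 of the 172 kept isolated sites (93.6%), equal at 3 and higher at 8. Of all kept WT peaks, 99.5% had fewer reads in KO. Median reads were 80 in WT and 49.5 in KO, and the median log2 ratio above background was -0.82 (quartiles -0.99 and -0.61). For the other kept WT peaks it was -0.88 (-1.07 and -0.69).

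At the 86 kept isolated sites with at least 80 WT reads, the median was 103 reads in WT and 61.5 in KO. The median log2 ratio was -0.93 (quartiles -1.07 and -0.75), a KO signal of 0.527 of that in WT. At 9483 other kept peaks it was -0.93 as well (-1.12 and -0.76). A log2 ratio below -1, less than 50% of the WT signal, was found at 31 of these 86 sites (36.0%, 26.0 to 47.1). Of all kept WT peaks with at least 80 reads, 39.8% had such a ratio. The ratio spread between isolated sites by 0.277 (SD), with 0.273 from counting alone, and between the other kept peaks by 0.265, with 0.268. Only sites with a called KO peak enter, which cuts off low ratios. These values therefore cannot show whether sites differ beyond counting.

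Among these 86 sites, the lowest ratio was on chromosome 1 from 112103050 to 112103814, 238380 bp outside Dsel, a gene of dermatan sulfate synthesis, with 122 WT and 44 KO reads (-1.71). The next lowest lay 236494 bp outside Myt1l, a neuronal transcription factor gene (chromosome 12, 29290790 to 29291354), with 116 and 50 reads (-1.40). A site 576293 bp outside Ripk2, a kinase gene of NOD receptor signalling (chromosome 4, 16739609 to 16740252), had 143 and 61 reads (-1.38).

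The highest ratio was on chromosome 9 from 88058432 to 88059036, 268927 bp outside Nt5e, which encodes the ecto-enzyme CD73. It had 86 WT and 97 KO reads (0.19) and was the one site of the 86 with more reads in KO. Inside Sox5, a SOX transcription factor gene (chromosome 6, 144620995 to 144621622), a site had 112 WT and 91 KO reads (-0.33). A site 179433 bp outside Ttll7, a tubulin-modifying enzyme gene (chromosome 3, 147163079 to 147163734), had 124 and 100 reads (-0.34). One inside Grk3, a receptor kinase gene (chromosome 5, 112941040 to 112941647), had 104 and 84 (-0.34).

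More recovered reads in KO than in WT were seen at 8 of 172 kept isolated sites (4.65%, 2.03 to 8.96). Of all kept WT peaks, 0.44% had more reads in KO. The sites were mostly weak. Under 60 WT reads the count was 7 of 31 kept isolated sites (22.6%, 9.59 to 41.1) and 50 of 1223 other kept peaks (4.09%, 3.05 to 5.35). All 4 kept isolated sites with fewer than 40 WT reads were among them, against 17 of 34 others. From 40 to below 50 reads it was 1 of 12 isolated and 25 of 281 other kept peaks. From 50 to below 60 reads it was 2 of 15 and 8 of 908. The class under 60 reads is thus not matched in reads between the groups. From 60 reads upward, more KO reads were seen at 1 of 141 isolated (0.709%, 0.0180 to 3.89) and 5 of 12920 other kept peaks (0.0387%). No KO peak had fewer than 29 reads, so these counts describe called peaks and not weak sites in general.

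Of the 8 sites, the one near Nt5e given above had the most reads in both lists. A site inside Robo2, an axon guidance receptor gene (chromosome 16, 74611340 to 74611693), had 33 WT and 39 KO reads. One inside Rbms3, an RNA-binding protein gene (chromosome 9, 117571078 to 117571687), had 55 and 62. A site 76015 bp outside Reg3b, a gene of an antibacterial lectin (chromosome 6, 78294645 to 78295098), had 59 and 65. These 3 sites were named after their values were seen. Others of the 8 had ratios between theirs or below them, down to 0.04 at a site of 49 WT and 50 KO reads.

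**Figure D3:**
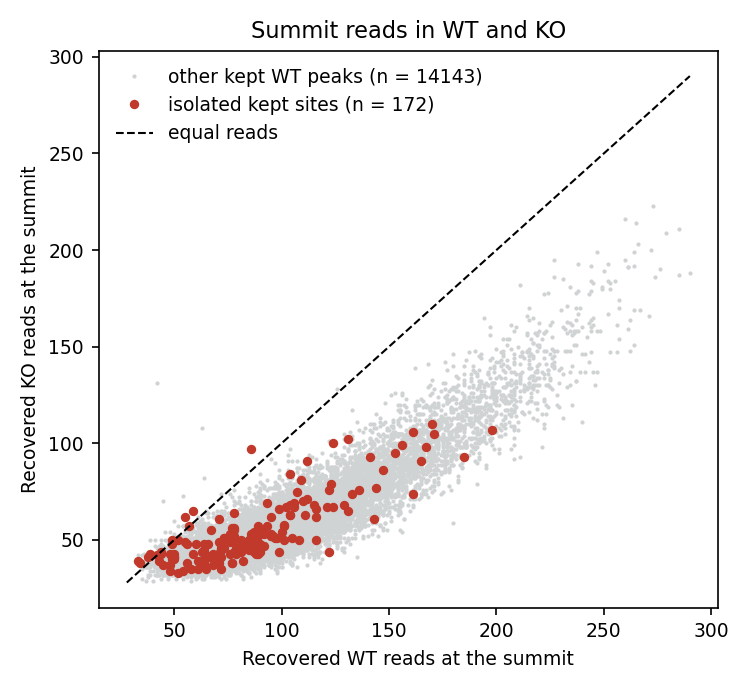
Recovered reads at the summit in WT (horizontal axis) and in the strongest overlapping KO peak (vertical axis) for the 172 kept isolated sites and the 14143 other kept WT peaks. The dashed line marks equal reads: 161 isolated sites lie below it, 3 on it and 8 above it.

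The position of the signal within a site was much the same in both lists. WT and KO summits of kept isolated sites lay a median of 31 bp apart, against 33 bp for the other kept peaks, and 116 of 172 (67.4%) lay within 50 bp, against 66.7%. Over 200 bp apart were 3 sites, against 3.51% of the others. KO peaks were narrower, with a median of 404 bp against 574.5 bp for the same sites in WT. At 3 sites (1.74%) the WT peak overlapped more than 1 KO peak, against 2.96% of all kept WT peaks.

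Another KO peak, not overlapping the site, lay within 150 kb of 5 of the 687 isolated sites (0.728%). A low count was set by the rule, since only 153 KO peaks had no WT peak, and it is given as a description. All 5 were WT-only sites, inside Tbc1d32, Fam124a, Sub1, Trappc9 and Snx24, and the KO peaks beside them had 34 to 46 reads. Each of these KO peaks was one of the 153. The closest was 27.04 kb from the site in Trappc9, with 65 WT reads at the site and 38 KO reads at the neighbour. At Sub1, which encodes a transcription cofactor and whose promoter is printed above, the site had 54 WT reads and the neighbour, 122 kb away, 34 KO reads.

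The surroundings of isolated sites held few genes. The rule bears on this, since it leaves out stretches with several WT peaks, and 34088 of 36576 WT peaks lay within 100 kb of a gene. The values are therefore given as a description. Within 150 kb of an isolated summit lay a median of 1 protein-coding gene span, against 4 for other WT peaks, and no gene span lay there for 138 sites (20.1%, 17.2 to 23.3) against 4.25% of the others. Over 100 kb from any gene lay 167 sites (24.3%, 21.1 to 27.7), against 6.47% (6.21 to 6.73). Weighted to the WT reads of the isolated sites, the share of the others was 6.42%. Among all WT peaks over 100 kb from a gene, 167 of 2488 (6.71%) were isolated, against 1.53% of those nearer to one.

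Inside a gene span lay 331 isolated sites (48.2%, 44.4 to 52.0), against 53.4% of the others. The spans around isolated sites were long, with a median of 173 kb against 64.6 kb. Over 10 kb deep within a span lay 184 sites (26.8%, 23.5 to 30.3), against 25.0%.

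The share of sites at gene ends differed little although genes were sparse. A gene end was within 2 kb of the summit at 172 isolated sites (25.0%, 21.8 to 28.5), against 27.3% of the others (26.8 to 27.7) and 28.4% when these were weighted to the same reads. This number equals that of the kept sites by coincidence: 34 sites belonged to both. A start site, of coding or non-coding genes, lay within 1 kb of 144 of 657 isolated sites off chromosome 18 (21.9%, 18.8 to 25.3), against 21.7% of the others (21.2 to 22.1). Their summits lay before the start at 72 and after it at 72, with a median position of 1 bp. Some genes had no listed start, so these shares cover listed starts only.

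**Figure D4:**
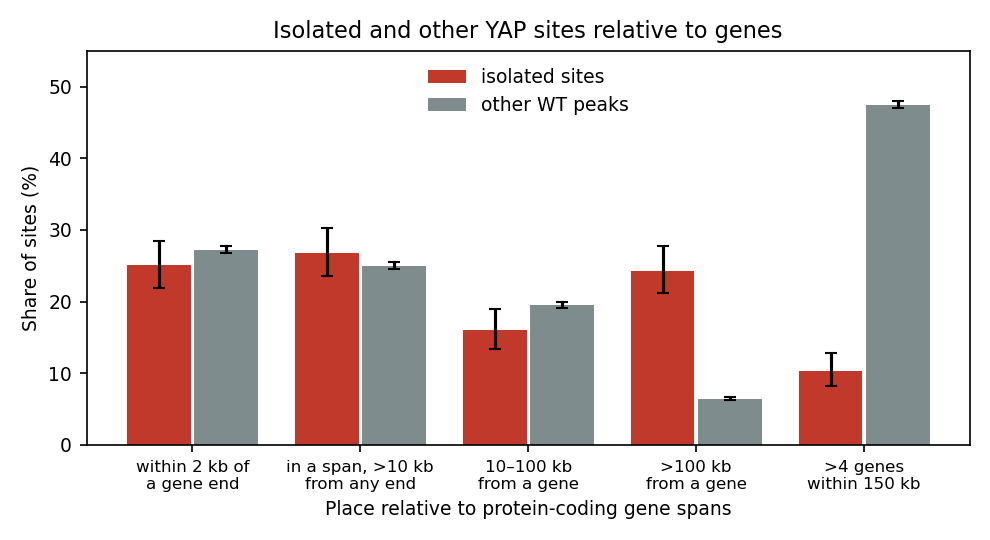
Share of isolated sites and of other WT peaks (vertical axis, %, with exact 95% intervals for counting error) in 5 places relative to protein-coding gene spans. The largest differences are at over 100 kb from a gene (24.3% against 6.47%) and at more than 4 genes within 150 kb (10.3% against 47.5%), and the shares within 2 kb of a gene end are 25.0% and 27.3%.

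Of the isolated sites near a gene end, 34 of 172 were kept (19.8%, 14.1 to 26.5), and 23.2% would have been from their reads. Over 100 kb from a gene, 51 of 167 were kept (30.5%, 23.7 to 38.1), against 28.4% from reads. Inside a span and away from its ends, 50 of 211 were kept (23.7%, 18.1 to 30.0), against 26.6%. Each expected value lay inside its interval, and it came from other WT peaks of like reads at any place. In the order of these places, 32.7%, 42.1% and 41.1% of the other WT peaks were kept.

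The 6 isolated sites at gene ends with the most reads were all kept, as were 99.8% of other WT peaks with at least 120 reads. The 6 sites belonged to Prkx, Alg6, Ccdc50, Ect2, Zfp317 and Diaph3. Alg6 encodes a glucosyltransferase that builds the sugar precursor of N-glycans, and its peak covered chromosome 4 from 99714944 to 99715744 with a summit 213 bases before the start. Ccdc50, whose product acts in EGF receptor signalling, had a peak on chromosome 16 from 27387767 to 27389333, 719 kb from the nearest other WT summit.

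Ect2 and Diaph3 act on the cytoskeleton in cell division, the first as a guanine nucleotide exchange factor and the second as a formin that builds actin filaments. At Ect2 (chromosome 3, 27153850 to 27155436) the site had 147 WT and 86 KO reads (-0.85). At Diaph3 (chromosome 14, 87140182 to 87142222) it had 129 and 68 (-1.03). Zfp317, a zinc finger gene, had 133 WT and 74 KO reads (-0.94; chromosome 9, 19621768 to 19622547). Its summit lay 8 bases after the start and 871 kb from any other WT summit. The peaks at Prkx, Ccdc50, Ect2 and Diaph3 were wide, at 1395, 1567, 1587 and 2041 bp, and these 4 were not kept when at least 50% of both peaks had to overlap.

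A summit in an available promoter window was found for 84 of 657 isolated sites (12.8%, 10.3 to 15.6) and for 9.99% of other WT peaks (9.68 to 10.3). The base composition of these windows was alike, with a median GC content of 61.0% against 62.0% and a median of 24 and 23 CpG pairs, while all 32817 windows of the table had 52.7% and 7. The TEAD letters GGAATG were in 11 of the 84 windows (13.1%, 6.72 to 22.2), at 16.5% of other peaks (13.5% weighted to the reads of the isolated sites) and in 14.7% of all windows. An E-box was in 8 windows (9.52%, 4.20 to 17.9), at 12.8% of other peaks and in 7.15% of all windows.

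The AP-1 letters TGANTCA were in none of the 84 windows, which allows a share of up to 3.57% by 3 counts of the total (exact upper bound 4.30%). They were at 6.91% of other peaks in promoter windows (6.09 to 7.81), 6.23% weighted to the same reads, and in 7.81% of all windows. From the weighted share, 5.23 windows would hold them. Motifs of different kinds shared bases in none of the 84 windows, but the windows of Gm35163 and Tceal8 each held both the TEAD letters and an E-box.

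The farthest sites from any other WT peak were weak and had no KO peak. The greatest distance, 4240 kb, was at a site of 48 WT reads on chromosome X from 61632864 to 61633238, 76569 bp outside Ldoc1. A site of 45 reads on chromosome 14 from 92316944 to 92317243 was 3876 kb from the next one and 696565 bp outside Pcdh9, a protocadherin gene. Another of 49 reads, on chromosome 15 from 16616913 to 16617258, lay 2648 kb from the next and 111484 bp outside Cdh9, a cadherin gene.

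The 2 other sites of these 5 belonged to genes that many cells use. Rnpc3, which encodes a protein of the minor spliceosome, had 55 WT reads at its start on chromosome 3 from 113629893 to 113630362, 2258 kb from the next site. Pex2, a peroxisome biogenesis gene on the same chromosome (5575815 to 5576175), had 36 reads at a site inside its span, 1767 kb from the next. Distance within the isolated sites did not go with being kept: over 300 kb, 60 of 241 were kept (24.9%), and up to 300 kb, 112 of 446 (25.1%).

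Chromosome X held 56 of the isolated sites. They made up 12.0% (9.21 to 15.3) of its 466 WT peaks, against 0.688% on chromosome 11 and 2.90% on chromosome 14, the lowest and highest autosomes. WT peaks were sparse on X, at 2.85 per Mb between its first and last WT peak, and dense on chromosome 11, at 24.5 per Mb. Counted per Mb, isolated sites were as frequent on X (0.342) as on several autosomes, among them chromosome 3 (0.337), chromosome 18 (0.348) and chromosome 19 (0.381).

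On X, 7 of the 56 isolated sites were kept (12.5%, 5.18 to 24.1), against 22.7% expected from their reads, a value inside the interval. On chromosomes 1 to 19, 165 of 631 were kept (26.1%, 22.8 to 29.8), against 27.2%. The isolated sites on X had a median of 48 WT reads against 53, and 21 of them (37.5%) lay near a gene end, against 23.9% on the autosomes.

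**Figure D5:**
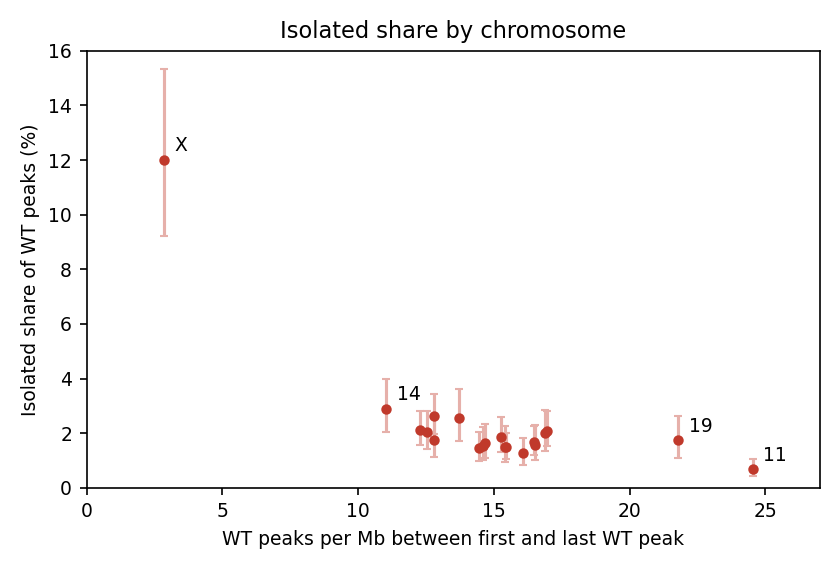
Share of each chromosome's WT peaks that are isolated (vertical axis, %, with exact 95% intervals for counting error) against the number of WT peaks per Mb between its first and last WT peak (horizontal axis), with 1 point per chromosome and 4 of them named. Chromosome X lies apart at 2.85 peaks per Mb and 12.0%.

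Few isolated sites lay at genes of the pathway and cell type lists. Of all WT peaks within 100 kb of their nearest gene, 520 of 34088 (1.53%, 1.40 to 1.66) were isolated. For 36 YAP/TEAD target and pathway genes the count was 0 of 218 peaks, for 33 keratinocyte genes 0 of 216 and for 39 inflammation and NF-kB genes 0 of 144. These allow shares of up to 1.38%, 1.39% and 2.08% by 3 counts of the total, and the exact 95% upper bounds are 1.68%, 1.69% and 2.53%, all above 1.53%. Over all 10 lists it was 7 of 1141 peaks (0.613%, 0.247 to 1.26), 2 of them kept. The rule bears on these counts, since many WT peaks at a gene leave less room for an isolated one. The 218 YAP/TEAD peaks were linked to 34 genes and the 216 keratinocyte peaks to 33, against 34088 peaks linked to 11358 genes in all. The counts are therefore given as a description. A WT peak was linked to 11358 of 21631 protein-coding genes in all. It was linked to 33 of 33 genes of keratinocytes, the main cells of epidermis. For other cell types it was 6 of 12 melanocyte, 4 of 13 fibroblast, 7 of 26 neuronal and 5 of 14 annotated Langerhans cell and T cell genes. YAP peaks near a gene do not measure its RNA.

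The 7 isolated sites at listed genes included 3 at gene ends. Btrc, whose product marks clock and NF-kB proteins for breakdown, had 58 WT reads and no KO peak (chromosome 19, 45363420 to 45363793). Atf2, an AP-1 partner gene, had 40 WT reads and no KO peak (chromosome 2, 73892395 to 73892702). Rock1, a kinase gene of actomyosin contraction, had 72 WT and 35 KO reads (-1.30; chromosome 18, 10181920 to 10182510).

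Of 26 neuronal genes, 3 had an isolated site, among 34 linked WT peaks. Inside Ctnna2, which encodes the neuronal alpha-catenin, a site had 90 WT and 44 KO reads (-1.23; chromosome 6, 76977738 to 76978515). A WT-only site of 39 reads lay inside Dlg2, a synaptic scaffold gene (chromosome 7, 91442675 to 91443084). Rbfox1, a neuronal splicing factor gene, had a WT-only site of 36 reads 35789 bp outside its span. One of 46 reads lay 25851 bp outside Dpt, a gene of the dermal matrix in the fibroblast list (chromosome 1, 164770638 to 164770962).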

How the data were processed

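Each genotype has 1 pooled list of YAP peaks, without a header and with 10 columns; input files were not used here. Per the submitters' processing notes, Trimmomatic 0.36, SAMtools 1.5, MACS2 2.1.1 and the build mm10 were used, with no roles stated. Of filters and the aligner, nothing is said: not given in the sources used here. Deposited scores are 10 times the −log10 q, truncated. The authors' lists also hold the fold at the summit over the caller's background (a ratio), the −log10 p and the −log10 q of each peak.

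Reads at each summit were solved from deposited fold and −log10 p. A whole number of reads matched within 0.002 in 100% of peaks, against 0.93% of WT and 0.40% of KO peaks when the scaling was moved by 3%. The scaling was 0.694 in WT and 0.842 in KO, and reads spread evenly gave 9.63 per window in both lists. This background was subtracted before KO to WT ratios, which used the strongest overlapping KO peak. The solver was checked on simulated lists.

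Gene spans (21631 protein-coding genes) and promoter windows came from RefSeq tables of GRCm38.p6, the build called mm10. The table of promoter windows used here holds none for chromosome 18, so its sites were left out of those counts. Some genes on other chromosomes also had no window, among them Xkr4 and Vps13b. The counts of start sites and promoter windows can therefore miss sites. The 95% intervals are exact (Clopper-Pearson); counting error is all they cover. A genotype is represented by 1 pool, which allows neither a test nor a p-value. Shares of other sites were also weighted to the read bins of the isolated sites. Sites were named by strength, by KO to WT ratio, by distance, by nearness to a gene end, by gene list and by closeness to the distance limit. A site that this rule names is not reported here. The members, lists and read bins were chosen with earlier results of these data known. Motifs at the summits themselves, as first planned, need a genome and were not searched; promoter windows were used in their place. Alternatives covered the distance limit, the neighbours counted, the overlap rule, score limits, the background and the gene distances. Calculations used Python 3.11.15, numpy 2.4.6, scipy 1.17.1 and pandas 2.3.3.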

Additional observations from a re-analysis of the deposited data

How the results depend on the processing

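The number of isolated sites followed the distance limit: it was 1180 at 100 kb, 456 at 200 kb and 241 at 300 kb. The share kept in KO was 21.8% with 50% reciprocal overlap. It was 61.9% of the 210 isolated sites left when only the highest-scoring WT peaks were taken, as many as KO has. The matching share of the other WT peaks is not given here. The log2 KO to WT ratio had a median of -0.70 without background subtraction, -0.60 from the authors' deposited folds and -0.93 for sites with at least 80 WT reads, an alternative chosen after seeing the data. Leaving the same background in both lists brings KO and WT closer in proportion by arithmetic. The cause of the shift with the deposited folds was not tested. Another KO peak lay within 50 kb of 0.146% of sites. In the other 32 recomputed values of these results, shares and ratios stayed inside the interval of the reported value and counts within 1.5 times. Of 117 recomputed overlap calls of named sites, 4 changed, all with 50% reciprocal overlap, at Prkx, Ccdc50, Ect2 and Diaph3. Weaker binding is not covered: the smallest called peak had 28 reads in WT and 29 reads in KO. No paired analysis was possible because there is 1 pooled peak list for each genotype.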

Other observations

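Few genes had more than 1 isolated site. This was largely set by the rule, which keeps isolated sites over 150 kb apart, and is given as a description. Of the genes within 100 kb of an isolated site and nearest to it, 469 had 1 such site, 21 had 2 and 3 had 3. The last 3, named after their values were seen, are among the longest genes, which the same spacing favours. Fhit spans 1612 kb and Wwox 913 kb; both are known as tumour suppressors that span common fragile sites in human. Sox5, a transcription factor gene, spans 954 kb.

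In Fhit, isolated sites had 104 WT and 63 KO reads, 93 and 69 reads, and 66 WT reads with no KO peak, and 15 WT peaks were linked to the gene in all. In Sox5, the 3 isolated sites were its only linked WT peaks, with 112 WT and 91 KO reads at one and 61 and 50 WT reads at WT-only sites. At Wwox, 1 of the 3 was kept, with 60 WT and 48 KO reads, and the WT-only ones had 56 and 69 WT reads.

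Zinc finger genes with the prefix Zfp held 6 of the 172 isolated sites near a gene end (3.49%, 95% interval 1.29 to 7.44), against 1.95% of the other WT peaks near one (1.69 to 2.25). These were Zfp317, Zfp386, Zfp40, Zfp451, Zfp664 and Zfp788, looked for after seeing the first. Besides Zfp317, only Zfp386 was kept, with 43 WT and 39 KO reads. Zfp40 had 77 WT reads and no KO peak.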
